A study of Mus musculus with 12 samples.

Results

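Amino acid catabolism and the urea cycle were followed through 47 listed genes of these pathways. Of the 47 genes, 42 had a transcript cluster with exactly 1 gene symbol, out of 19938 such genes on the array. A transcript cluster is the set of probes that the array summarizes into 1 value, and the value of a gene was its cluster with the highest mean over the 12 arrays. The other 5 were not analysed here. The clusters of Ass1 carry a second symbol, and Gls2, Sds, Sdsl and Mat2a were not matched to a cluster. Of the 42 genes, 41 had 1 cluster and Bhmt had 3.

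The liver strips the amino group from surplus amino acids and sends the carbon skeletons to glucose, ketone or energy metabolism. The freed ammonia enters the urea cycle, in which carbamoyl phosphate is made in mitochondria, joined to ornithine, and the nitrogen leaves as urea when arginase splits arginine. Each amino acid has its own chain of enzymes, and many of these genes are expressed mainly in hepatocytes and respond to feeding, glucagon, glucocorticoids and insulin.

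KK-Ay mice (KK.Cg-A-y/J) carry the A-y allele of agouti on the KK background and become obese and diabetic, and KK mice are the background strain without it. Both strains were fed the same chow. The 12 arrays fell into 6 groups of 2 by title, namely 6Y, 16Y, 42Y, 6K, 42WKK and 1. The series design places 6Y, 16Y and 42Y among mice with type 2 diabetes (T2D) and 6K, 42WKK and 1 among controls, while the single sample records name 6K as T2D and 42Y as control. Groups are therefore called by title. The methods give 42 weeks as the age of the mice, a number that the titles 42Y and 42WKK carry, while what the numbers in 6Y, 6K and 16Y stand for and the strain and age behind arrays 1-3 and 1-5 are not given in the labels. Nothing ties an array to an animal of its own, and p-values therefore measure a spread between arrays that may be technical. Agouti had log2 signals of 6.78 to 7.06 in the arrays 6Y, 16Y and 42Y and 5.20 to 5.51 in the arrays 6K, 42WKK and 1, and so followed the series design. The A-y allele places agouti under the promoter of Raly, which is active in most tissues, so the allele is not a liver-specific model.

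The sample records name blood and the methods name liver as the tissue. The median of 8 hepatocyte genes lay between 13.05 and 13.25 on the log2 scale on every array, whereas 4 T cell genes had medians of 3.65 to 4.07 and 3 B cell genes of 2.78 to 3.50, so the hepatocyte markers were present and the lymphocyte markers were near the bottom of the scale. Xist, which is expressed from an inactive X chromosome, lay between 2.29 and 2.91, and the Y-linked Eif2s3y between 7.19 and 7.94, on all 12 arrays. Array medians over all 35556 clusters ranged from 4.74 to 4.88, and the 2 arrays of a group correlated at 0.983 (42Y) to 0.991 (42WKK). In such bulk samples fewer hepatocytes and less of an RNA per hepatocyte cannot be told apart.

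The genes Acmsd, Uroc1, Agxt, Amt and Cbs were the members called between 2 groups (adjusted p under 0.05) in the comparisons described here. The promoter windows of Uroc1, Agxt, Amt and Cbs from RefSeq (GRCm38.p6, 250 bases before to 50 after the transcript start, 300 bases in all) are shown because the study asked about methylation of promoter CpG sites. Capitals mark each CG dinucleotide, and methylation itself was not analysed here.
Uroc1 (chr6:90333039-90333338, plus strand): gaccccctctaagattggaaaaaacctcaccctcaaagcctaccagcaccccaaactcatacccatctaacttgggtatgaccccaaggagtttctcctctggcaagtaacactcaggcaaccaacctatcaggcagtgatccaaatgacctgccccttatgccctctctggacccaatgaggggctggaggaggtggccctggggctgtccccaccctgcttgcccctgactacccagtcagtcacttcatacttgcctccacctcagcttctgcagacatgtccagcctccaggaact
Agxt (chr1:93134990-93135289, plus strand): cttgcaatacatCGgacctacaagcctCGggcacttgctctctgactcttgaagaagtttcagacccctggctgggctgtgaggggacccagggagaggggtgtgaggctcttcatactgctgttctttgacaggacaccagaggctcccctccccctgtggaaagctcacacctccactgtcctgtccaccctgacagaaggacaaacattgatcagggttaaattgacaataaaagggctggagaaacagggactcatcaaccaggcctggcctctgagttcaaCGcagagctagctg
Amt (chr9:108296655-108296954, plus strand): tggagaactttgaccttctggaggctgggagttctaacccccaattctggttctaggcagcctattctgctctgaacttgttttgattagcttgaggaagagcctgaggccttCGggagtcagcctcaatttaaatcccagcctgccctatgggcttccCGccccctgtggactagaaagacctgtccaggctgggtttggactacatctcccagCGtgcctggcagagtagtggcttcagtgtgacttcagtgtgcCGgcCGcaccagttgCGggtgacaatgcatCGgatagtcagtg
Cbs (chr17:31637156-31637455, minus strand): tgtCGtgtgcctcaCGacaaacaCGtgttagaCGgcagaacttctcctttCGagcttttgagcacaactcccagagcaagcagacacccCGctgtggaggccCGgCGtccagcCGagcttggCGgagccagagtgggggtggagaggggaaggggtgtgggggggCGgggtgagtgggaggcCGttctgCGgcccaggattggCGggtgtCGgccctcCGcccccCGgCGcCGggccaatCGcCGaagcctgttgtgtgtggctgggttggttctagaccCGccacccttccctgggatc
The window of Cbs held 22 CG dinucleotides, Amt 7, Agxt 3 and Uroc1 0, against a median of 7 over all 32851 windows of the table. A window was found for 34 of the 42 members, with 39 windows in all, and 23.1% of these held at least 15 CG dinucleotides, against 34.6% of all windows. Motifs were searched on both strands. The E-box CACGTG, bound by clock factors, was present in 3 of the 39 windows (Cbs, Slc25a13 and Slc25a15), and in 7.15% of all windows. The nuclear receptor half-site AGGTCA was present in 14 of the 39 (35.9%), those of Uroc1 and Amt included, and in 16.3% of all windows. The D-box TTATGTAA was in none of the 39 and in 0.938% of all windows. These motifs were chosen after the signals were seen, and a match is a stretch of letters and not a bound site.

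The lowest and highest of the 6 group means of the 42 genes were 0.10 to 1.27 apart on the log2 scale, with a median of 0.47, and 3 genes, Csad, Acmsd and Agxt, spanned more than 1. Among all 2582 genes with a mean log2 signal of at least 8 the median distance was 0.46. The distance was above 0.5 for 33.3% of the members and 43.8% of those genes, and above 1 for 7.14% and 9.1%. In a moderated F test over the 6 groups 7 of the 42 genes passed at an adjusted p under 0.05 (5.43% of all clusters did). How many genes with signals as high as those of the members passed was not counted. They were Amt (adjusted p = 0.017), Acmsd (0.024), Agxt (0.030), Mat1a (0.035), Aass (0.038), Cbs (0.047) and Csad (0.048). With 1 array left out, Amt lost this call in 4 of 12 omissions, Acmsd in 5, Agxt in 9, Mat1a and Csad in 10, and Aass and Cbs in 11. Group 1 had the lowest mean for 14 of the 42 genes and the highest for 1, while 6K had the highest for 12 and 42WKK for 11. The order of the groups over all clusters was not counted, so this may not be particular to the members.

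**Figure D1:**
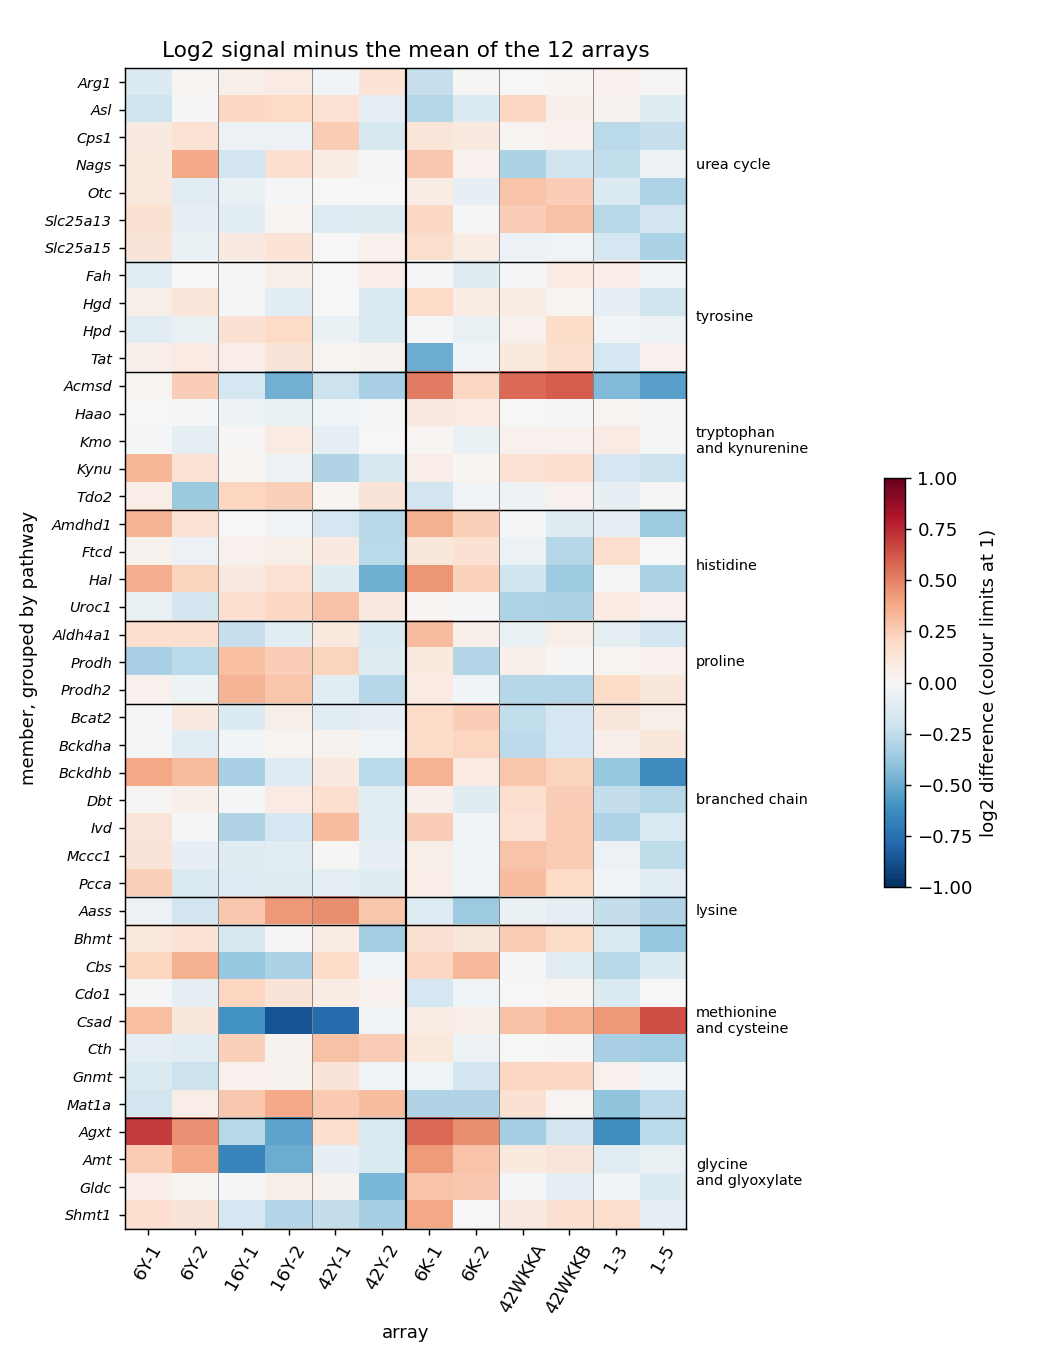
Log2 signal of the 42 member genes on each of the 12 arrays minus the mean of that gene over the arrays, with genes in rows grouped by pathway, arrays in columns and colour limits at 1. The strongest colours are in Csad, Agxt, Amt, Bckdhb and Acmsd, and the rows of Fah and Kmo, whose group means span 0.10, are pale.

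The first comparison asked which genes of amino acid breakdown differ between the KK-Ay and KK arrays of the 42-week titles. Of the 42 genes 1 was lower and 1 was higher in 42Y than in 42WKK. Acmsd, whose enzyme decarboxylates an intermediate of tryptophan breakdown and so draws it away from NAD synthesis, had log2 signals of 7.58 and 7.47 in 42Y, against 8.36 and 8.40 in 42WKK. It fell by 0.86 on the log2 scale (standard error 0.15, adjusted p = 0.033 from limma), that is to 0.552 of the KK level. Uroc1, urocanase, which acts after histidase in histidine breakdown, had 10.22 and 10.02 in 42Y, against 9.62 and 9.61 in 42WKK. It rose by 0.50 (standard error 0.10, adjusted p = 0.048), or 1.41-fold. In both genes the 2 arrays of 42Y lay apart from the 2 of 42WKK. The other groups did not split by status. Acmsd stood at 7.62 and 7.31 in 16Y, at 7.82 and 8.04 in 6Y, at 8.30 and 8.0 in 6K and, lowest of the 6 groups by mean, at 7.35 and 7.25 in the control arrays 1-3 and 1-5. Uroc1 stood at 10.09 and 10.13 in 16Y, at 9.85 and 9.74 in 6Y, at 9.95 and 9.90 in 6K and 10.00 and 9.97 in arrays 1-3 and 1-5. The 42WKK arrays were thus the highest of all 12 for Acmsd and the lowest for Uroc1. Both genes were picked for a difference between 42Y and 42WKK. How many of all clusters have the 42WKK arrays highest or lowest was not counted.

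Over all clusters 1.85% were called in 42Y against 42WKK (0.934% higher, 0.92% lower), against 2 of the 42 members. Of the 581 genes with a mean log2 signal of at least 10, 10 were called higher and 18 lower. Arrays did not overlap for 10 members with higher and 18 with lower signals in 42Y (25.1% and 22.7% of all clusters). Over the 42 members the log2 fold changes had a median of -0.05, against 0.02 over all clusters and -0.12 over the 581 genes with a mean log2 signal of at least 10. At an unadjusted p under 0.05 there were 4 members with a higher and 10 with a lower mean in 42Y, 33.3% of the 42 together, against 17.3% of all clusters and 38.6% of those 581 genes. Largest in size among the members not called was Csad, cysteine sulfinate decarboxylase of taurine synthesis, at -0.72 (standard error 0.22, adjusted p = 0.14). Aass, which starts lysine breakdown, followed at 0.46 (standard error 0.12, adjusted p = 0.11). Csad was 8.57 and 9.31 in 42Y and 9.63 and 9.69 in 42WKK, so the 42Y arrays lay far apart. Aass was 11.46 and 11.27 in 42Y and 10.92 and 10.89 in 42WKK.

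The remaining tryptophan genes did not pass at 42 weeks. Tdo2, tryptophan dioxygenase at the entry of the pathway, had a log2 fold change of 0.08 (adjusted p = 0.84), Kmo -0.09 (0.70) and Haao -0.02 (0.95). Kynu, kynureninase, was 10.16 and 10.30 in 42Y and 10.61 and 10.63 in 42WKK, which gives -0.39 (standard error 0.10, adjusted p = 0.10). So Acmsd was the 1 gene called among the 5 of this branch.

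The clock stood apart in the same arrays. For 12 clock and clock output genes that E-boxes and D-boxes drive, the array median was 6.99 and 7.77 in 42Y and 6.75 and 6.93 in 42WKK. Of the 12, 5 were called higher in 42Y, and 2 had lower means. Of 3 clock genes of the opposite phase, 2 were called lower in 42Y and 1 had a higher mean. Arntl, 1 of the 3, was 5.62 and 5.67 in 42Y and 7.74 and 7.64 in 42WKK. Neutrophil and monocyte genes had a median of 4.35 and 5.53 in 42Y, against 4.29 and 4.47 in 42WKK. The part of the clock or of these cells in the results on Acmsd and Uroc1 was not tested. Without array 1-3, 1-5, 42WKKA, 42WKKB, 42Y-1 or 42Y-2 Acmsd no longer passed (adjusted p = 0.053 to 0.192, log2 fold change -0.91 to -0.80 over all 12 omissions), and Uroc1 passed in 1 of the 12 omissions, that of 42Y-2 (adjusted p = 0.070 to 0.231 in the others, log2 fold change 0.40 to 0.60). The call of Uroc1 also ended after median centring (adjusted p = 0.059) and without the 6K arrays (0.081). In the 4 arrays of 42-week mice alone neither gene passed (0.181 for Acmsd, 0.281 for Uroc1), and 0 clusters were called.

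**Figure D2:**
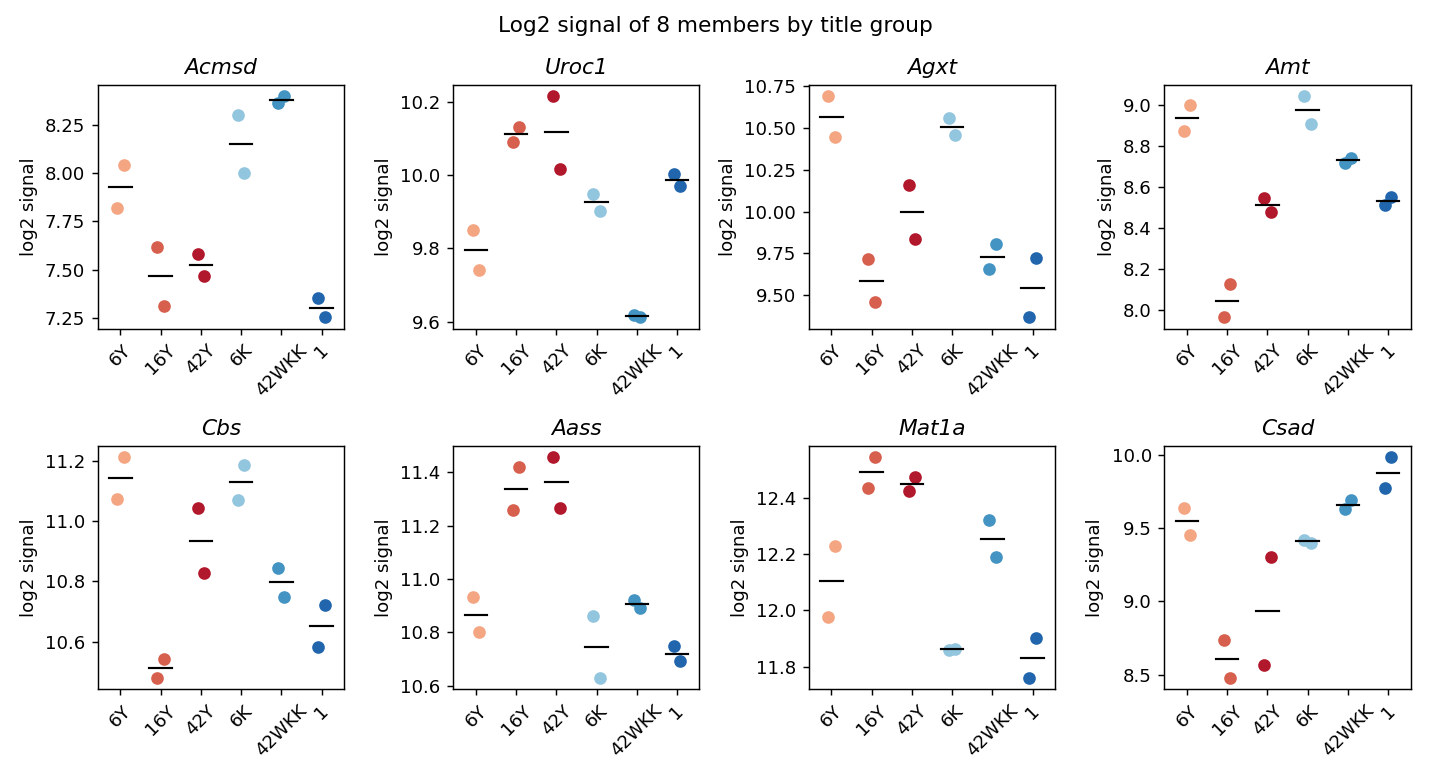
Log2 signal of the 8 members that passed a comparison of groups or the F test over the 6 groups, by title group, with a point for each array and a line for the mean of the 2. Acmsd is 7.58 and 7.47 in 42Y and above 8.3 in 42WKK, and Agxt, Amt and Cbs are lower in 16Y than in 6Y.

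The comparison of 6Y with 6K asked for the same difference at the smaller title number. Arrays did not overlap for 4 members with higher and 8 with lower signals in 6Y (17.6% and 17.8% of all clusters). None of the 42 genes was called by limma, while 0.00281% of all clusters, which is agouti alone, were called. At an unadjusted p under 0.05, 1 member (2.38%) passed, against 5.28% of all clusters. Of the 581 genes with a mean log2 signal of at least 10, 2.58% did. The log2 fold changes ran between -0.26 (Bckdha, a subunit of the branched chain keto acid dehydrogenase) and 0.33 (Tat, tyrosine aminotransferase), and 41 of the 42 were smaller than 0.3 in size. The 95% intervals still reached -0.57 and 0.67. Bckdha was 9.53 and 9.44 in 6Y and 9.73 and 9.76 in 6K (95% interval of the difference -0.47 to -0.05, adjusted p = 0.89). Tat was 13.46 and 13.49 in 6Y and 12.91 and 13.38 in 6K, with array 6K-1 far below the other. Mat1a, the S-adenosylmethionine synthase of adult liver, had a log2 fold change of 0.24 and Kynu of 0.19, while Gldc, the glycine decarboxylase, had -0.23 and Bcat2 -0.18 (adjusted p = 0.92 for each).

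Whether the Y-minus-K difference of the arrays with title number 42 departed from that with 6 was tested directly. None of the 42 genes passed, and 0.143% of all clusters were called (0.09% with a larger value at title number 42). At an unadjusted p under 0.05, 6 members (14.3%) passed, against 13.2% of all clusters. Of the 581 genes with a mean log2 signal of at least 10, 23.9% did. Acmsd had a difference of differences of -0.64 (adjusted p = 0.26) and Uroc1 of 0.63 (adjusted p = 0.13). For neither gene is the 42Y difference thus shown to depart from the 6Y one. The largest in size was Csad at -0.86 (95% interval -1.56 to -0.16, adjusted p = 0.29).

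Among the KK-Ay groups, Agxt, Amt and Cbs were lower in 16Y than in 6Y. Agxt, the aminotransferase that turns glyoxylate into glycine, had log2 signals of 9.71 and 9.46 in 16Y, against 10.69 and 10.44 in 6Y. It fell by 0.98 (standard error 0.17, adjusted p = 0.037 from limma), to 0.507 of the 6Y level. Amt, the aminomethyltransferase of the glycine cleavage system, had 7.96 and 8.13 in 16Y, against 8.87 and 9.004 in 6Y. It fell by 0.89 (standard error 0.10, adjusted p = 0.017), to 0.538 of the 6Y level. Cbs, cystathionine beta-synthase, which joins homocysteine with serine, had 10.48 and 10.54 in 16Y, against 11.07 and 11.21 in 6Y. It fell by 0.63 (standard error 0.12, adjusted p = 0.040), to 0.645. In each of the 3 genes both arrays of 16Y were below both arrays of 6Y.

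No member was higher at the threshold in 16Y than in 6Y, and 3 of the 42 were lower, where 1.78% of all clusters were called (0.582% higher, 1.2% lower). Of the 581 genes with a mean log2 signal of at least 10, 4 were called higher and 18 lower. At an unadjusted p under 0.05 there were 10 members with a higher and 9 with a lower mean in 16Y, 45.2% of the 42 together, against 18.1% of all clusters and 31.5% of the 581 genes with a mean log2 signal of at least 10. Arrays did not overlap for 15 members with higher and 17 with lower signals in 16Y (27.8% and 21.6% of all clusters). All 4 genes of the glycine and glyoxylate group had lower means in 16Y, 2 of them called, and their log2 fold changes had a median of -0.64 (0.04 over all clusters). The 2 not called were Gldc at -0.03 (adjusted p = 0.95) and Shmt1, serine hydroxymethyltransferase of the cytosol, at -0.38 (adjusted p = 0.21). Csad was 8.74 and 8.48 in 16Y, against 9.64 and 9.45 in 6Y, which gives -0.94 (standard error 0.22, adjusted p = 0.070). In the other direction stood Prodh, proline dehydrogenase, at 10.17 and 10.11 in 16Y, against 9.54 and 9.60 in 6Y (log2 fold change 0.57, adjusted p = 0.098), Aass at 0.47 (adjusted p = 0.092) and Mat1a at 0.39 (adjusted p = 0.13).

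Other cell types and the clock also separated 16Y from 6Y. The median of 4 endothelial genes was 7.48 and 7.53 in 16Y, against 8.02 and 8.35 in 6Y, with 2 of the 4 called lower, and that of 5 stellate cell genes was 5.95 and 6.01 in 16Y, against 6.65 and 7.25 in 6Y, with 1 of the 5 called lower. For the 12 clock and clock output genes the array median was 7.01 and 7.29 in 16Y, against 6.15 and 5.90 in 6Y. All 12 had higher means in 16Y, and 4 of them were called. The hepatocyte genes had medians of 13.05 and 13.09 in 16Y, against 13.19 and 13.21 in 6Y. The part of these in the changes of Agxt, Amt and Cbs was not tested. Amt no longer passed without any 1 of the 4 arrays compared (adjusted p = 0.0505 to 0.103), Agxt without any 1 of these 4 or of the arrays 6K and 42WKK (0.061 to 0.148), and Cbs passed in 2 of 12 omissions, those of array 42Y-1 or 42Y-2 (0.058 to 0.189 in the others), with no change of sign. As both 16Y arrays lay below both 6Y arrays in these 3 genes, an omission could not have changed the sign. The call of Cbs also ended after quantile normalization (adjusted p = 0.064) and without the 6K arrays (0.065). That of Agxt ended without the 6K arrays (0.061), and all 3 ended in the 4 arrays compared alone (0.114 to 0.155).

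As the title numbers 16 and 6 are not explained in the labels, an effect of age cannot be told apart from other differences between these groups. Against all 10 other arrays, both 16Y arrays were lowest for Amt, Cbs and Haao and highest for Tdo2, Prodh, Prodh2 and Cdo1, 3 and 4 members where 2.74% and 3.82% of all clusters did so. The arrays titled 6K give a view of the same genes without the A-y allele. Agxt was 9.66 and 9.81 in 42WKK and 10.56 and 10.46 in 6K, and in a comparison of 42WKK with 6K added after these values were seen Agxt was lower by its means (-0.77, standard error 0.17, adjusted p = 0.079). In that comparison Cbs had -0.33 (adjusted p = 0.23) and Amt -0.25 (adjusted p = 0.31), no member passed, 16 (38.1%) did at an unadjusted p under 0.05, against 15% of all clusters and 31.7% of the 581 genes with a mean log2 signal of at least 10, and 1.01% of all clusters were called (0.554% higher). Arrays did not overlap for 17 members with higher and 16 with lower signals in 42WKK (23.1% and 26.9% of all clusters), among them Mat1a (0.39), Tat (0.39), Asl (0.34), Hal (-0.62) and Bcat2 (-0.42). For Agxt the 4 arrays of 6Y and 6K all lay above the 8 others, which ran between 9.37 and 10.16. How many of all clusters show this split was not counted.

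**Figure D3:**
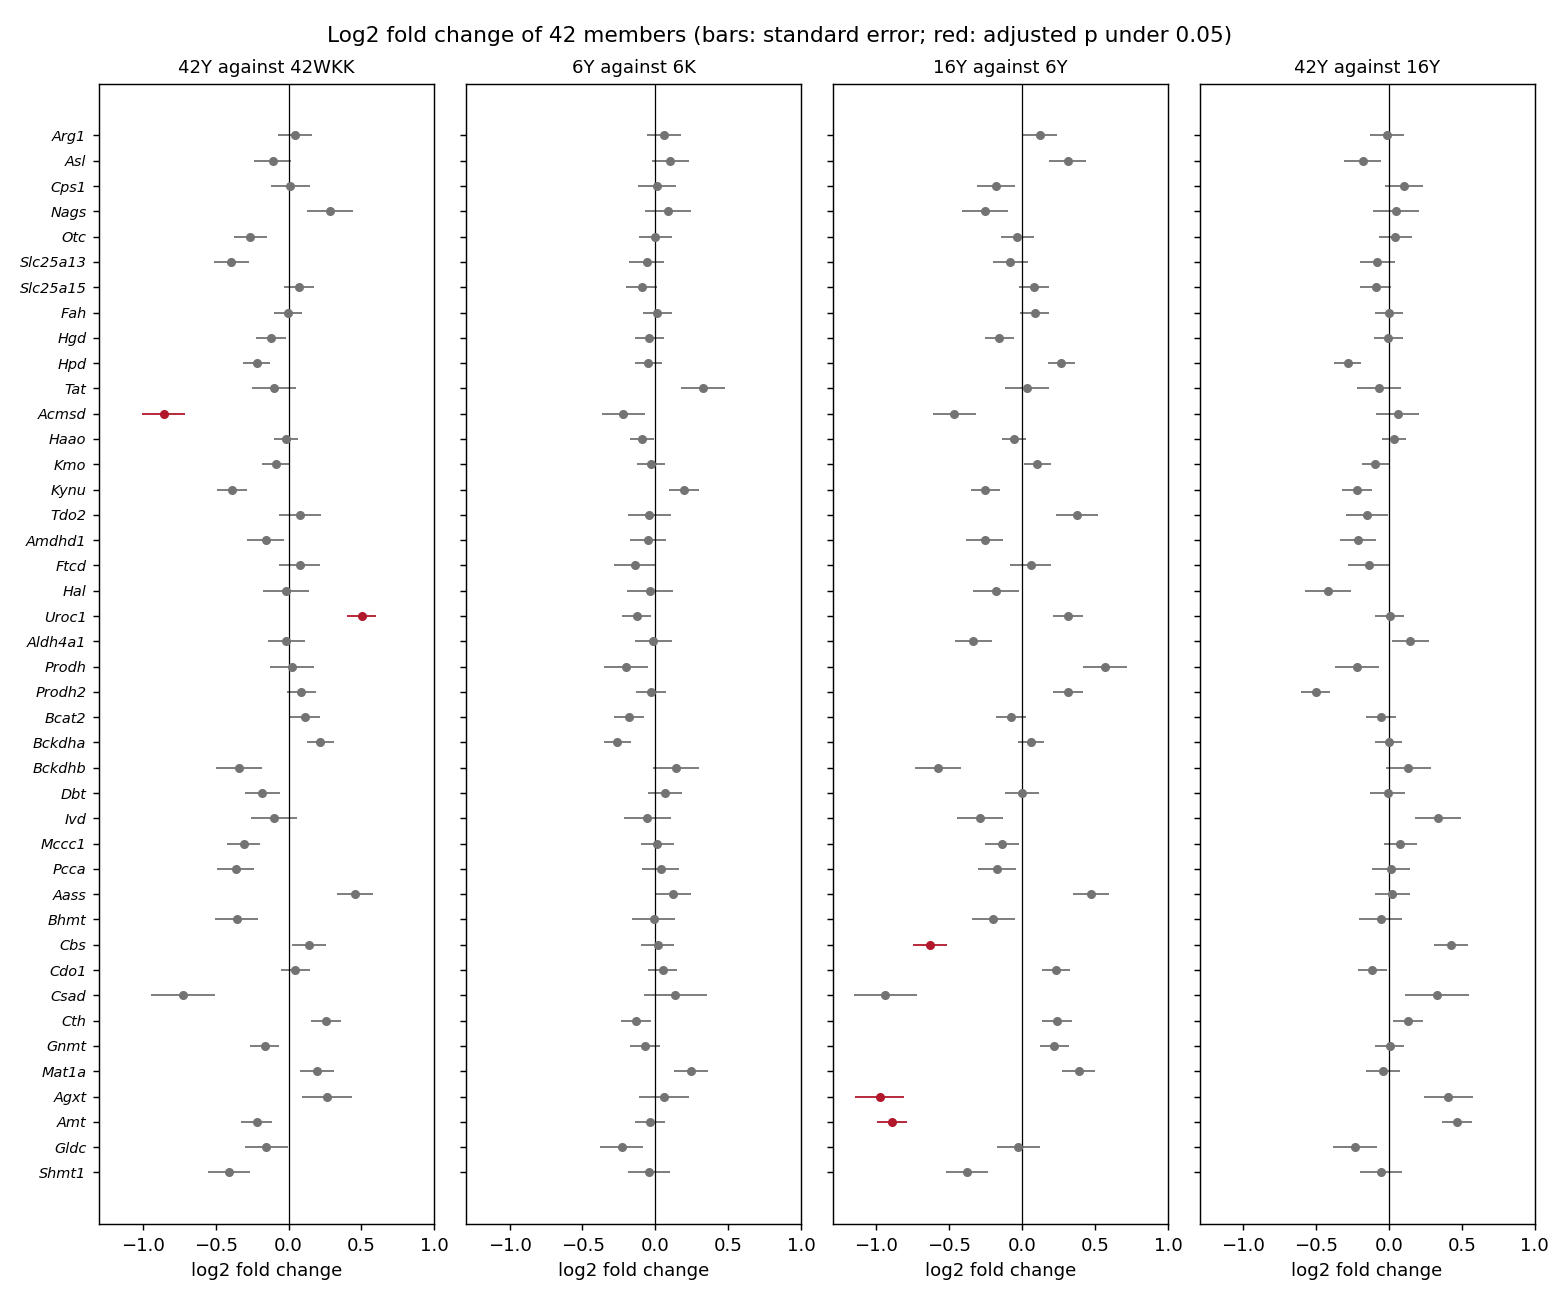
Log2 fold change of each of the 42 members in 4 comparisons, with bars for the standard error from limma and red for an adjusted p under 0.05. Points spread least in 6Y against 6K, where they lie between -0.26 and 0.33, and most in 16Y against 6Y, where they lie between -0.98 and 0.57.

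Set against 16Y, the arrays of 42Y had higher means of the 3 genes that were low in 16Y, and no member passed. Amt was 8.54 and 8.48 in 42Y, against 7.96 and 8.13 in 16Y, which gives 0.47 (95% interval 0.23 to 0.70, adjusted p = 0.11). Cbs had 0.42 (95% interval 0.16 to 0.69, adjusted p = 0.15) and Agxt 0.41 (95% interval 0.02 to 0.80, adjusted p = 0.34). This comparison shares the 16Y arrays with the one before, so a low 16Y array moves both. Lower in 42Y by their means were Prodh2, a proline and hydroxyproline dehydrogenase, at -0.50 (9.16 and 8.99 in 42Y, 9.61 and 9.54 in 16Y, adjusted p = 0.086), Hal, histidase, at -0.42 (adjusted p = 0.29) and Hpd, which converts hydroxyphenylpyruvate to homogentisate, at -0.28 (adjusted p = 0.23). At an unadjusted p under 0.05 there were 6 members (14.3%), against 13.9% of all clusters. Of the 581 genes with a mean log2 signal of at least 10, 15.3% passed. Over all clusters 0.399% were called. Arrays did not overlap for 8 members with higher and 13 with lower signals in 42Y (18.4% and 23.7% of all clusters). Set against all 10 other arrays, both 42Y arrays were highest for Cth alone and lowest for no member, which held for 3.09% and 3.07% of all clusters.

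Over all arrays, the 6 of 6Y, 16Y and 42Y were set against the 6 of 6K, 42WKK and 1. No member was called, and 0.208% of all clusters were called. At an unadjusted p under 0.05, 8 members (19.0%) passed, against 12.3% of all clusters. Of the 581 genes with a mean log2 signal of at least 10, 21.9% did. The 6 arrays of one side did not lie wholly above or below those of the other for any of the 42 genes, which 0.166% and 0.157% of all clusters did. The differences were smaller than 0.3 in size for 38 of the 42. Csad had the lowest at -0.62 (95% interval -0.91 to -0.33, adjusted p = 0.11) and Aass the highest at 0.40 (95% interval 0.24 to 0.56, adjusted p = 0.082), followed by Mat1a at 0.37 (adjusted p = 0.089).

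Csad ran from 8.48 to 9.64 in the arrays 6Y, 16Y and 42Y and from 9.40 to 9.99 in the arrays 6K, 42WKK and 1. The low values were those of 16Y-1, 16Y-2 and 42Y-1, while 42Y-2, at 9.31, and the 6Y arrays lay near the others. Without 42Y-2, which leaves a lone array assumed to vary like the other groups, Csad was the 1 member called in this comparison. Aass was 11.26 to 11.46 in the 4 arrays of 16Y and 42Y, 10.80 and 10.93 in 6Y, and 10.63 to 10.92 in the 6 arrays of 6K, 42WKK and 1. Mat1a was 12.42 to 12.54 in 16Y and 42Y, 11.98 and 12.23 in 6Y, 12.32 and 12.19 in 42WKK, and 11.76 to 11.90 in 6K and 1. In both genes the 16Y and 42Y arrays lay above all other arrays, and the 6Y arrays overlapped with those of 42WKK. The share of all clusters with such an order was not counted.

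None of the 7 measured genes of the urea cycle group was called in any of these comparisons of groups. Of all clusters, 0.00281% to 1.85% were called, so the lack of a call among 7 genes is not a result about the cycle. Ass1 and Gls2 of this group were not analysed. Cps1, carbamoyl phosphate synthetase at the entry of the cycle, was 12.89 and 12.48 in 42Y and 12.66 and 12.68 in 42WKK (log2 fold change 0.01, 95% interval -0.28 to 0.31). Otc, ornithine transcarbamylase, was 11.54 on both arrays of 42Y and 11.82 and 11.79 in 42WKK (-0.26, 95% interval -0.52 to -0.003, adjusted p = 0.28). Arg1, the arginase that releases urea, spanned 0.18 over the 6 group means, where Nags, Slc25a13 and Otc spanned 0.50, 0.50 and 0.49, and its log2 fold change in 42Y was 0.05 (95% interval -0.22 to 0.31). Asl, argininosuccinate lyase, had -0.11 and Nags, which makes the activator of Cps1, 0.29 (adjusted p = 0.73 and 0.40). Of the mitochondrial carriers, Slc25a13, the aspartate-glutamate carrier citrin, was 10.03 on both arrays of 42Y and 10.40 and 10.45 in 42WKK (-0.39, standard error 0.12, adjusted p = 0.15), and Slc25a15, the ornithine carrier, had 0.07.

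In tyrosine breakdown Fah, fumarylacetoacetase, which ends the chain, spanned 0.10 over the 6 group means, Hgd 0.27, Hpd 0.28 and Tat 0.39. The 4 genes had log2 fold changes of -0.22 to -0.003 in 42Y against 42WKK, none called. Of histidine breakdown, Hal, Amdhd1 and Ftcd had -0.02, -0.16 and 0.08, while Uroc1 alone of the 4 was called. Hal was 10.73 to 10.95 in the 4 arrays of 6Y and 6K and 10.02 to 10.65 in the 8 others. Amdhd1 was 9.80 to 10.00 in these 4 arrays and 9.29 to 9.66 in the 8 others. This split was seen in the values, and how many of all clusters show it was not counted.

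Branched chain amino acids are first transaminated, by Bcat2 in most tissues outside the liver, and then oxidized by the complex of Bckdha, Bckdhb and Dbt. None of the 7 genes of this branch was called in a comparison of groups, where at most 1.85% of all clusters were. Lower means in 42Y than in 42WKK were found for 5 of the 7, with a median log2 fold change of -0.18. The same held for 25 of the 42 members and 16867 of all 35556 clusters. Of the 581 genes with a mean log2 signal of at least 10, 397 were lower, with a median of -0.12. Pcca, a subunit of propionyl-CoA carboxylase, had 9.21 and 9.18 in 42Y and 9.61 and 9.50 in 42WKK (-0.36, adjusted p = 0.20), Bckdhb -0.34 (adjusted p = 0.31) and Mccc1, of leucine breakdown, -0.31 (adjusted p = 0.21). Bckdhb had the widest span of the branch, 0.86 over the 6 group means, with 10.00 and 9.92 in 6Y and 9.22 and 8.98 in group 1.

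In the methionine and cysteine group Cth, cystathionine gamma-lyase, was 11.52 and 11.46 in 42Y and 11.23 on both arrays of 42WKK (0.26, adjusted p = 0.25). Gnmt and Cdo1, which use up S-adenosylmethionine and oxidize cysteine, had -0.16 and 0.05. The 3 Bhmt clusters, of betaine-homocysteine methyltransferase, did not give the same size of difference. In 42Y against 42WKK they had -0.36, -0.34 and -0.57 (adjusted p = 0.26, 0.27 and 0.10), and in 42Y against 16Y -0.06, -0.06 and -0.77 (adjusted p = 0.91, 0.90 and 0.078). The third of these, 10411142, is not the one that stands for the gene here, and with several clusters for 1 symbol this gene is uncertain.

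Other genes of amino acid metabolism were taken from lists by pathway, and are read against the 1.85% of all clusters called in 42Y against 42WKK and the 1.78% in 16Y against 6Y. Of 52 other enzymes measured, none was higher and 1 was lower in 42Y than in 42WKK. Their median log2 fold change was -0.17, against -0.12 over the 581 genes with a mean log2 signal of at least 10. The 1 enzyme called was Agxt2, a mitochondrial aminotransferase, at 10.03 and 9.86 in 42Y and 10.42 and 10.51 in 42WKK. It fell by 0.52 (standard error 0.10, adjusted p = 0.043). Of 17 amino acid transporters 1 was higher, Slc43a1, a carrier of large neutral amino acids, at 6.96 and 6.95 in 42Y and 6.01 and 6.18 in 42WKK, which rose by 0.86 (standard error 0.16, adjusted p = 0.041). Of 16 regulators 1 was higher, Cebpa, a transcription factor of hepatocyte metabolism, at 8.96 and 8.73 in 42Y and 7.80 and 8.02 in 42WKK, which rose by 0.93 (standard error 0.14, adjusted p = 0.020). Both 42WKK arrays of Cebpa lay below the 10 others, which ran from 8.33 to 8.98, an order not counted over all clusters. In the comparison of 42WKK with 6K, added after values were seen, Cebpa was lower in 42WKK (-0.97, adjusted p = 0.022 from limma). Both comparisons share the 42WKK arrays, so low 42WKK arrays move both.

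In 16Y against 6Y, 2 of the 52 enzymes were higher and 1 was lower (0.582% and 1.2% of all clusters). Gatm, which joins arginine and glycine in creatine synthesis, had 5.47 and 5.54 in 16Y, against 6.56 and 6.94 in 6Y, and fell by 1.25 (standard error 0.17, adjusted p = 0.024). Hsd17b10, of isoleucine breakdown, rose by 0.75 (standard error 0.11, adjusted p = 0.027) and Dhtkd1, of lysine and tryptophan breakdown, by 0.72 (standard error 0.11, adjusted p = 0.031). Dhtkd1 was 8.40 and 8.42 in 16Y, against 7.75 and 7.62 in 6Y. Of the transporters and regulators none was called in 16Y against 6Y, with 11 of 17 and 1 of 16 at an unadjusted p under 0.05, against 18.1% of all clusters. None of the 3 lists had a called gene in 6Y against 6K, with 4 of 52, 2 of 17 and 0 of 16 at an unadjusted p under 0.05, against 5.28% of all clusters.

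**Figure D4:**
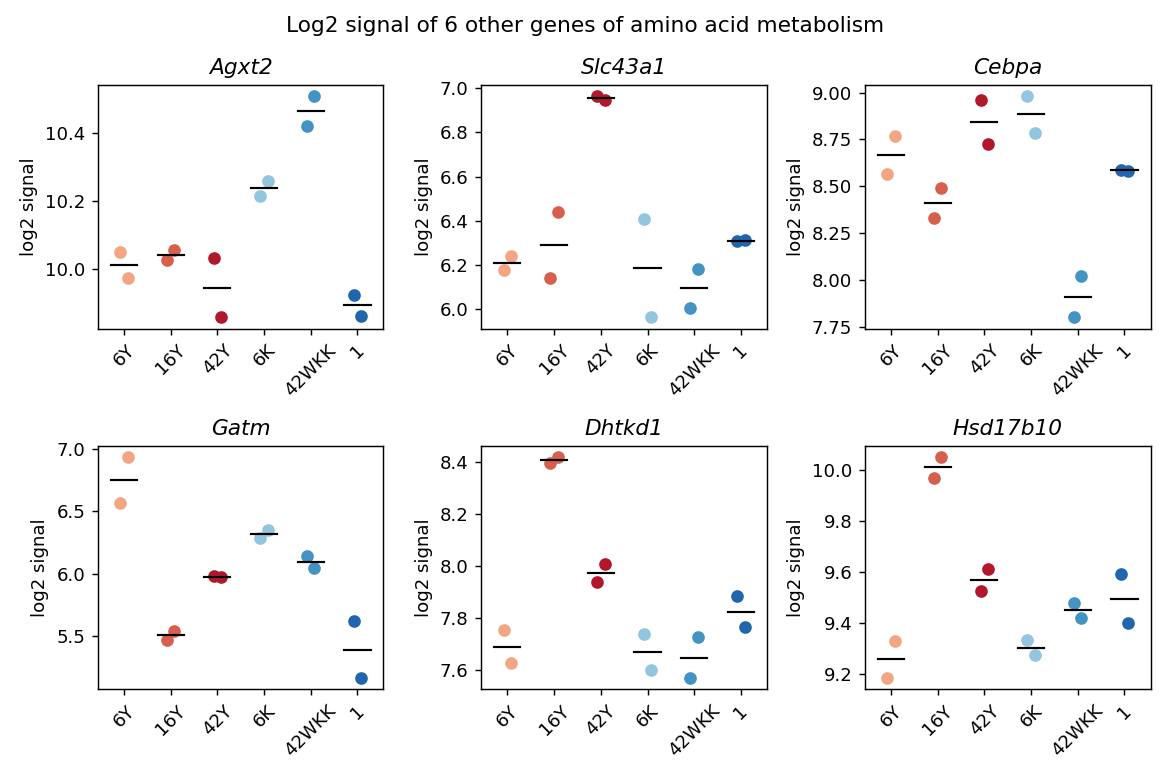
Log2 signal of 6 genes outside the member list that were called in 42Y against 42WKK (Agxt2, Slc43a1, Cebpa) or in 16Y against 6Y (Gatm, Dhtkd1, Hsd17b10), by title group, with a point for each array and a line for the mean. Cebpa is 8.96 and 8.73 in 42Y and 7.80 and 8.02 in 42WKK, and Gatm is below 5.6 in 16Y and above 6.5 in 6Y.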

How the data were processed

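Gene expression was measured on 12 Affymetrix arrays. Deposited were log2 signals, 1 for each transcript cluster, which the authors made in Affymetrix Expression Console with the robust multichip analysis sketch algorithm, which corrects background, normalizes between arrays by quantiles and summarizes probes. An exon array of the mouse is named in the methods, but the cluster numbers match the annotation of a mouse gene array, and no genome build is named for the probes. Of 35556 clusters 21789 had 1 gene symbol, 1621 several and 12146 none, and 21698 were matched to RefSeq (GRCm38.p6) for current names. Values of different clusters are not comparable as levels.

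The means of 6 groups were fitted to all clusters with limma 3.58.1 (lmFit and eBayes without trend, R 4.3.3), so that 12 arrays share 1 estimate of the spread, and p-values over all clusters were adjusted after Benjamini and Hochberg, with calls at an adjusted p under 0.05. Precision is limited by the number of arrays. The fit was tested on simulated data. No scan or hybridization batch is given in the sources used here. The 47 members, the other lists and the comparisons were chosen with earlier results of these data known. All members called in a comparison are named, or, where none was, up to 3 in each direction whose arrays did not overlap. The other members are given by role. The promoter window of 1 called member is not reported here. Alternatives covered normalization, a filter at a mean log2 of 6, trended variances, only clusters with 1 symbol, the arrays in the fit, the replicate number as a block, the clusters of a gene, the ANOVA that the study names, and each array left out.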

Additional observations from a re-analysis of the deposited data

Results flagged for a closer look

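Single arrays lay far from the others in 5 of 84 sets of 6 arrays (the 42 genes in the 6 arrays that the series design calls T2D and the 6 that it calls control). Chance flags about 1 in 20 sets of 6 values drawn alike. Each set here pools title groups whose means can differ, so that rate may not hold. Among the T2D arrays, Pcca was 9.54 in 6Y-1, with the rest from 9.17 to 9.21. Gldc was 9.37 in 42Y-2, with the rest from 9.81 to 9.89, and Tdo2 was 11.99 in 6Y-2, with the rest from 12.38 to 12.60. Among the control arrays, Arg1 was 11.55 in 6K-1, with the rest from 11.79 to 11.83, and Prodh was 9.58 in 6K-2, with the rest from 9.88 to 9.96. No member passed the test of whether the 42Y against 42WKK difference departs from that of 6Y against 6K.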

How the results depend on the processing

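No called member changed direction after quantile normalization or median centring, the 2 alternatives that could have changed it. Omitting an array could not reverse a called difference, as its arrays did not overlap between the groups compared. The filter, the trend, the 1-symbol clusters, the fits on fewer groups, the block and the ANOVA leave a log2 fold change as it is. So does the mean over a gene's clusters, as each member called between groups has 1 cluster. The number called depended on the setting. In 42Y against 42WKK (2 members) it was 1 after median centring, 6 at a mean log2 of at least 6, 4 with a variance trend, 1 in 10 arrays without 6K, 0 in the arrays of the groups compared, 11 by the unadjusted ANOVA and 0 after adjustment, and 0 to 2 with an array left out. In 16Y against 6Y (3 members) it was 2 after quantile normalization, 11 with the filter, 5 with the trend, 7 with 1-symbol clusters, 7 with the mean over a gene's clusters, 1 without 6K, 0 in the arrays of the groups compared, and 0 to 4 with an array left out. In 42Y against 16Y (0) it was 3, 2, 1 and 1 with the filter, the trend, 1-symbol clusters and the gene mean, and in the arrays of 6Y, 16Y and 42Y against the others (0) 4, 2, 3 and 3, with 0 to 1 when an array was left out. The difference of differences gave 3 with the filter. The F test (7) gave 19, 15, 14 and 14 in those 4 settings, 5 after quantile normalization, 10 after median centring, 2 without 6K and 0 to 7 with an array left out. Members whose arrays did not overlap between the 2 sides numbered 0 to 1 with an array left out. The filter, 1-symbol clusters and the gene mean test fewer clusters, and the fits on fewer arrays have fewer degrees of freedom. The cause of the other shifts was not tested.

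With replicate numbers 1 and 2 of the titles 6K, 6Y, 16Y and 42Y as a block, 1 member was called in 42Y against 42WKK, 2 in 16Y against 6Y and 4 in the F test, with Uroc1 (adjusted p = 0.063) and Cbs (0.060) no longer called between groups. Over all clusters, the deviations of same-numbered arrays of these titles had correlations of -0.036 to 0.055 over 6 pairs of groups. Whether same-numbered arrays share a batch was not tested. With 2 arrays in a group, the 95% intervals of log2 fold changes between 2 groups reached 0.189 to 0.495 to either side. Some differences whose interval did not include a value of no change, such as that of Kynu in 42Y against 42WKK, were not called.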
